A study of Drosophila melanogaster with 12 samples.

Results

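Cytochrome P450 enzymes are heme-containing monooxygenases that hydroxylate or otherwise oxidize fatty acids, steroids, other hormones and foreign compounds. In insects most sit in the endoplasmic reticulum and take electrons from the P450 reductase Cpr, sometimes with cytochrome b5, while a mitochondrial clan is served by the adrenodoxin reductase dare and a ferredoxin. Flies carry large Cyp4, Cyp6, Cyp9 and Cyp12 families, and a small set known as the Halloween genes makes the molting hormone ecdysone. The genes described here are the 62 of 9500 genes in the deposited table whose symbol is Cyp followed by a family number, letters and a gene number, with Cyp18a1 left out. They comprise 18 Cyp4, 19 Cyp6, 5 Cyp9, 5 Cyp12 and 15 genes of other families, and all are protein-coding in the annotation used here. The choice went by symbol and not by measured value, although earlier results of these data were known when it was made.

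Expression was measured in the fat body, which stores lipid and carries out liver-like metabolism in flies, taken from female larvae that had left the food before pupariation (the wandering stage of the last instar). The diets were 1.7 M fructose (HFD) against 0.3 M fructose (CFD) and 1.7 M glucose (HGD) against 0.3 M glucose (CGD), with 3 libraries per diet and 12 in all. All 12 libraries, the controls included, came from offspring of w1118 males and UAS-Dcr2; r4-GAL4 females, so that r4-GAL4 drove Dicer-2 expression in the fat body on every diet. The growth notes also mention RNA interference of InR, but the cross they name carries no such transgene. Larvae were matched by stage and not by hours of age, and fat bodies were isolated by shearing and centrifugation according to the labels, or by fine dissection and centrifugation with a microscope check of purity according to the study's methods. The 9500 genes together held 3484911 to 11134939 recovered reads in the HFD libraries, 8555742 to 9736580 on CFD, 6916321 to 9239826 on HGD and 8858117 to 9496780 on CGD. HFD replicate 2 held the fewest of these reads, with a median of 32 reads per gene. The study's totals of sequenced reads show no HFD library this far below the others. Its counts of detected genes were lowest of all 12 in an HFD library, but its labels do not say whether that was HFD replicate 2. Every listed gene held at least 1 read in every library. Of the 80 annotated symbols of this form, 62 were in the table and the rest were not analysed here. The larval fat body markers Lsp2, Lsp1alpha, Lsp1beta, Lsp1gamma, Fbp1 and Fbp2 were all abundant. Of these only Lsp1alpha was called with either sugar by the limma test described below. Its log2 fold change was -1.92 on HFD against CFD and -1.85 on HGD against CGD. The others are not shown to be unchanged. Fbp1 (-0.85 and -0.74) and Fbp2 (0.60 and 0.79) were not called, although their HFD and CFD libraries did not overlap. These are bulk tissue samples, in which fewer cells of a type and less RNA per cell cannot be told apart.

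P450 genes changed in both directions when dietary sugar was high. On HFD 12 of the 62 genes were higher and 10 lower than on CFD, which is 22 genes or 35.5%, against 19.3% of all 9500 genes. By direction, 9.4% of all genes were called higher and 9.93% lower. On HGD 13 P450 genes were higher and 6 lower than on CGD, which is 19 genes or 30.6%, against 29.6% of all genes (16.7% higher and 12.9% lower). The share of P450 genes called was thus above the background for fructose and near it for glucose. A gene was called when limma, fitted to log2(normalized value + 1) over all 12 libraries, gave a Benjamini-Hochberg adjusted p below 0.05 over all 9500 genes. With both sugars 15 P450 genes were called (24.2%, against 15.2% of all genes), 9 higher, 6 lower and 0 in opposite directions, and likewise 0 of the 1445 genes called with both over all genes went in opposite directions. A further 7 P450 genes (11.3%, against 4.12% of all genes) were called with fructose only and 4 (6.45%, against 14.4%) with glucose only, and each had the same sign with the other sugar. In all, 50 of 62 genes (80.6%) had the same sign with both sugars, against 80.2% of all genes. Libraries of the 2 diets did not overlap in 16 higher and 14 lower P450 genes on HFD against CFD, where the background was 19% and 19.1%, and in 18 higher and 10 lower on HGD against CGD, where it was 24% and 20.8%.

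**Figure D1:**
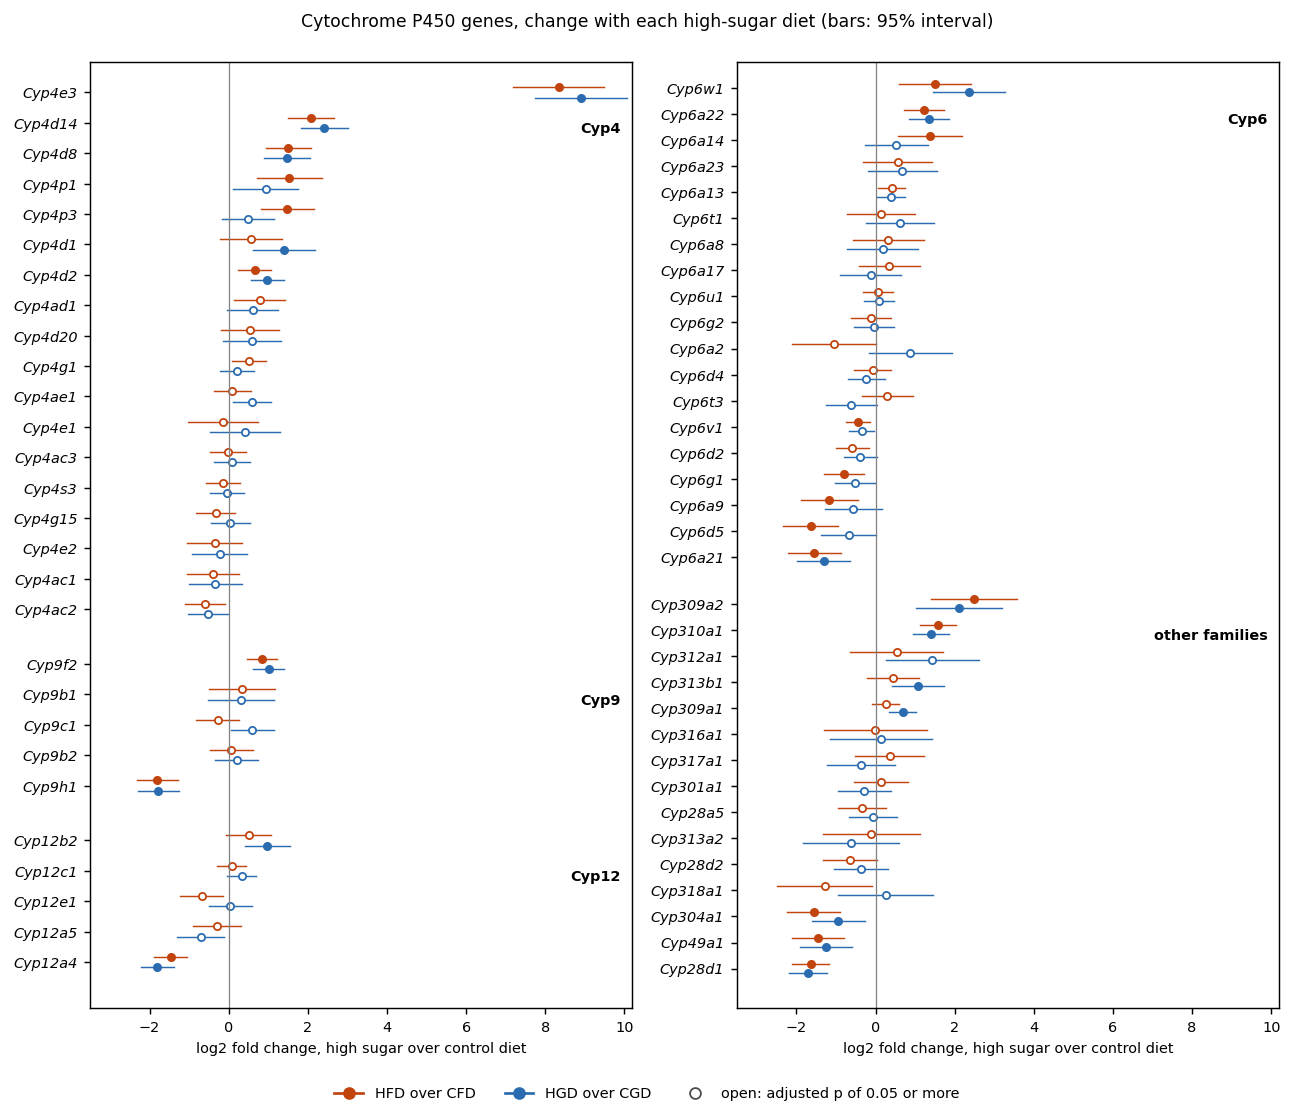
Log2 fold change (x axis) of each of the 62 P450 genes (y axis), HFD over CFD in red and HGD over CGD in blue, with 95% intervals; filled points passed an adjusted p of 0.05 (limma). Cyp4e3 stands apart at 8.34 and 8.90, no Cyp4 gene was called lower with either sugar, and the Cyp6 genes lie on both sides of 0.

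The size of the changes was uneven. The median log2 fold change over the 62 genes was 0.07 on HFD against CFD and 0.19 on HGD against CGD, beside -0.02 and 0.01 over all genes. The median absolute change was 0.53 and 0.59, beside 0.34 and 0.41 over all genes. On the log2 scale the change was at least 1 in size for 20 P450 genes on HFD (32.3%, against 11.9% of all genes) and 16 on HGD (25.8%, against 15.1%), called or not. The high-sugar response averaged over both sugars, which rests on all 12 libraries, gave 18 higher and 12 lower genes (48.4%), against 41.9% of all genes (21.2% higher and 20.7% lower).

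The balance between directions depended on how libraries were scaled. When every library was scaled to the same total, the log2 fold change had a median over the 9500 genes of -0.21 on HFD against CFD and -0.20 on HGD against CGD, and over the 62 genes of -0.12 and -0.02, above the median of all genes as before. The calls were then 10 higher and 10 lower P450 genes on HFD and 10 higher and 8 lower on HGD, beside 414 higher and 953 lower genes on HFD and 642 higher and 1363 lower on HGD over the whole table. Averaged over both sugars, 13 P450 genes were higher and 16 lower, beside 882 higher (9.28%) and 2466 lower (26%) over the whole table. Of the 22 genes called on HFD 19 were also called with equal totals, and of the 19 called on HGD 16.

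Cyp4 enzymes are best known as fatty acid omega-hydroxylases, a role established in mammals and shared by some insect members. In this family 6 of 18 genes were higher and 0 lower on HFD, and 5 were higher and 0 lower on HGD. The shares of all genes were 9.4% higher and 9.93% lower on HFD, and 16.7% higher and 12.9% lower on HGD. With equal totals the Cyp4 counts were 5 and 0 on HFD, and 5 and 0 on HGD, beside 4.36% and 10%, and 6.76% and 14.3%, of all genes. Its median log2 fold change was 0.52 on HFD and 0.53 on HGD, beside -0.02 and 0.01 over all genes. For the high-sugar response averaged over both sugars, 8 Cyp4 genes were higher and 1, Cyp4ac2, was lower.

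Cyp4e3 had the largest log2 fold change of all 9500 genes with either sugar. This gene (FBgn0015035, chromosome 2L from 9747839 to 9750071 on the minus strand, in the build BDGP6.54) encodes a P450 that has been tied to permethrin tolerance in adult flies. Its normalized values were 8182, 4701 and 3080.3 in the HFD libraries, against 14.1, 13.7 and 14.9 in the CFD libraries. In the HGD libraries they were 8646, 7881 and 4944, against 9.66, 5.44 and 44.4 in the CGD libraries. Every high-sugar library was thus far above every control library, and among the controls CGD replicate 3 was the highest. The log2 fold change was 8.34 (SE 0.54, limma adjusted p 7.94e-07) on HFD and 8.90 (SE 0.54, adjusted p 3.41e-07) on HGD, or 323-fold and 477-fold on the scale of value + 1. The HGD value was 9.71 without CGD replicate 3 and 8.31 without CGD replicate 2. Between the 2 high-sugar diets, HGD minus HFD, the gene differed by 0.50 with a 95% interval of ± 1.16.

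Beside Cyp4e3, 3 Cyp4 genes rose with both sugars. Cyp4d14 (FBgn0023541, chromosome X from 2173415 to 2175315 on the minus strand) had normalized values of 551, 645 and 437 on HFD, against 103, 182 and 108 on CFD. On HGD it had 729, 739 and 574, against 105, 95.8 and 199 on CGD. Neither pair of diets overlapped, and the log2 fold changes were 2.08 (SE 0.28, limma adjusted p 0.000215) and 2.41 (SE 0.28, adjusted p 4.73e-05). An antisense RNA, asRNA:CR45479, covers 96.2% of its exon bases in BDGP6.54, and as no source used here gives the strand setting of the counting, reads of these genes cannot be told apart.

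Cyp4d8 (FBgn0015033, chromosome 3L from 7493557 to 7496197 on the minus strand) had 319.7, 363 and 324 on HFD, against 109, 173 and 84.7 on CFD. It had 442, 478 and 340.0 on HGD, against 109, 141 and 218 on CGD, and no library of HFD or HGD overlapped those of its control. Its log2 fold changes were 1.51 (SE 0.27, limma adjusted p 0.00168) and 1.47 (SE 0.27, adjusted p 0.00128). Cyp4d2 averaged 909.9 ± 57 on HFD and 582 ± 85.3 on CFD (SD, n = 3 each), a smaller log2 change of 0.65 (limma adjusted p 0.0284). On HGD it averaged 1079.9 ± 174 and on CGD 557 ± 158 (SD, n = 3 each), a change of 0.98 (adjusted p 0.00207). The antisense RNA asRNA:CR44690 covers 98.7% of the exon bases of Cyp4d2. With libraries scaled to equal totals, the HFD change of Cyp4d2 was 0.45 (adjusted p 0.124), and it was also lost without CFD replicate 1 or 3 or HFD replicate 1 or 2 (adjusted p 0.0665 to 0.105).

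The remaining Cyp4 calls came with only 1 sugar, and in none of them was the difference between the responses to the 2 sugars called. Cyp4p1 and Cyp4p3 are neighbors on chromosome 2R and rose with fructose. Cyp4p1 had 436, 304 and 134 on HFD, against 105, 102 and 67.9 on CFD, a log2 change of 1.53 (SE 0.38, limma adjusted p 0.0129). On HGD it had 350.4, 263 and 318, against 98.8, 172 and 245 on CGD, a change of 0.93 with an adjusted p of 0.080. The diets did not overlap with either sugar. The HFD call of Cyp4p1 was lost without CFD replicate 3 (adjusted p 0.0534) or HFD replicate 2 (0.0552), and the HGD change passed without CGD replicate 3 (0.0335) or HFD replicate 3 (0.0292). Cyp4p3 averaged 41.6 ± 6.13 on HFD and 14.3 ± 2.41 on CFD (SD, n = 3 each), a change of 1.48 (limma adjusted p 0.00501). For Cyp4p3 the response to glucose minus that to fructose was -0.99 (unadjusted p 0.0414, limma adjusted p 0.937).

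Cyp4d1, the most abundant Cyp4 gene on the control diets per kb of exon, rose with glucose. It had 5033, 13659.8 and 8308 on HGD, against 2495, 3082 and 4080.5 on CGD, a log2 change of 1.40 (SE 0.36, limma adjusted p 0.0108). On HFD it had 9033, 3769 and 3919.6, against 3390.5, 3635 and 3362 on CFD, a change of 0.56 with an adjusted p of 0.30. HGD replicate 2 and HFD replicate 1 lay well above the other libraries of their diets. Without HGD replicate 2 the change was 1.04 and its adjusted p 0.0514. The response to glucose minus that to fructose was 0.83 with a 95% interval of ± 1.09.

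Cyp4g1, which in oenocytes performs the last step of cuticular hydrocarbon synthesis, was not called. It had 104, 91.9 and 90.9 on HFD, against 83.1, 60.8 and 59 on CFD, and 86.8, 114 and 76.6 on HGD, against 96.2, 72.9 and 69.1 on CGD. The log2 changes were 0.51 (95% interval ± 0.43) and 0.21 (± 0.43). Averaged over both sugars, Cyp4ad1 was higher by 0.69 (limma adjusted p 0.0183), and Cyp4ac2 was lower, at -0.56 (adjusted p 0.0158). With equal totals the call of Cyp4ad1 was lost (0.49, adjusted p 0.0686). The lowest log2 change in the family, in a gene that was not called, was -0.61 on HFD and -0.51 on HGD.

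**Figure D2:**
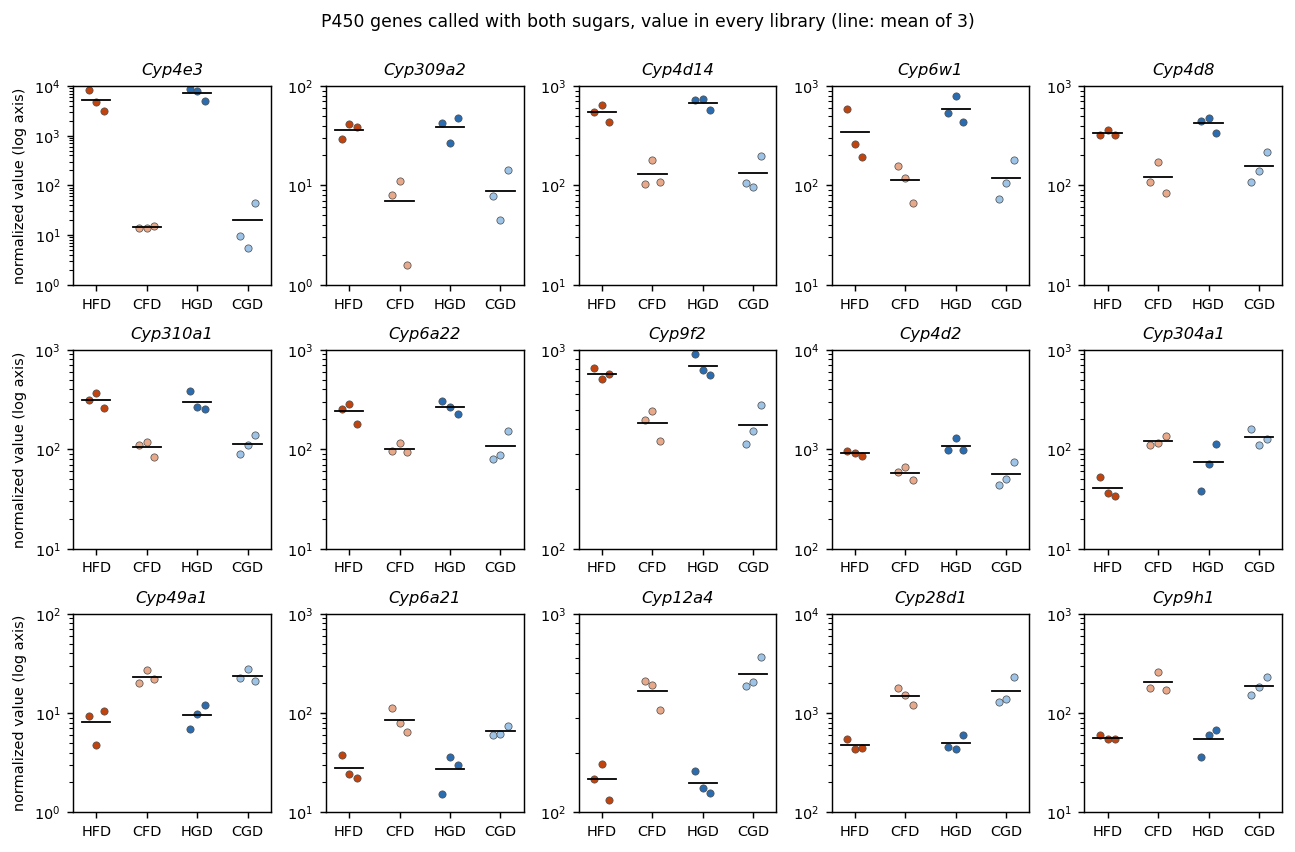
Normalized value (log y axis) in each of the 3 libraries on HFD, CFD, HGD and CGD for the 15 P450 genes called with both sugars; points are libraries and lines are means. In 9 panels the genes rose and in 6 they fell, Cyp4e3 lies at 44.4 or lower on the control diets and at 3080.3 or higher on the high-sugar diets, and Cyp304a1 overlaps between HGD and CGD.

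The Cyp6 family, microsomal enzymes best known for insecticide and plant toxin metabolism, was mixed. On HFD 3 of 19 genes were higher and 5 lower, beside 9.4% and 9.93% of all genes, with a median log2 fold change of 0.06. On HGD 2 were higher and 1 lower, beside 16.7% and 12.9% of all genes, with a median of -0.04. With equal totals 2 were higher and 4 lower on HFD, with a median of -0.13, and 2 were higher and 3 lower on HGD. The lower genes included the 2 that were most abundant on CFD, Cyp6g1 and Cyp6d5.

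Cyp6w1 had 581, 261 and 193 on HFD, against 158, 118 and 66.7 on CFD, and HFD replicate 1 was the highest of its diet. It had 535, 798 and 434 on HGD, against 72.2, 105 and 179.7 on CGD. Both pairs were free of overlap, with log2 changes of 1.51 (SE 0.42, limma adjusted p 0.0231) and 2.35 (SE 0.42, adjusted p 0.0012). The HFD call was lost without HFD replicate 1 (1.06, adjusted p 0.0821) or CFD replicate 3 (1.17, 0.0912). Cyp6a22 averaged 239.7 ± 53.9 on HFD and 101 ± 11.8 on CFD (SD, n = 3 each), a change of 1.22 (limma adjusted p 0.00315). On HGD it averaged 265 ± 37.7 and on CGD 107 ± 40 (SD, n = 3 each), a change of 1.35 (adjusted p 0.00101). Cyp6a14, which had as few as 3 reads in a library, rose on HFD by 1.37 (limma adjusted p 0.0198), a call that was lost without HFD replicate 1 or CFD replicate 3 (adjusted p 0.0759 and 0.0762) and with equal totals (0.0501).

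Cyp6a21 (FBgn0033981, chromosome 2R from 14885264 to 14886947 on the minus strand) was the Cyp6 gene that fell with both sugars. It had 38.2, 24.5 and 22 on HFD, against 111, 78.4 and 63.7 on CFD, and 15.3, 36.4 and 30.1 on HGD, against 59.7, 62.1 and 74.7 on CGD. No high-sugar library reached a control library. The log2 changes were -1.55 (SE 0.31, limma adjusted p 0.00375) and -1.31 (SE 0.31, adjusted p 0.00692). A further 4 Cyp6 genes were lower on HFD only.

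Cyp6d5 had 864, 605 and 493 on HFD, against 3048, 1444 and 1766 on CFD, a log2 change of -1.64 (SE 0.32, limma adjusted p 0.00337). On HGD it had 733, 711 and 1168, against 967, 1273 and 2049.5 on CGD, and HGD replicate 3 lay above CGD replicate 1. The glucose change was -0.68 (adjusted p 0.124), and it passed with libraries scaled to equal totals (-0.90, adjusted p 0.036). Cyp6g1, whose overexpression gives resistance to DDT and other insecticides, had 5029, 3206 and 3752 on HFD, against 6756, 7127 and 6466 on CFD. On HGD it had 3362, 4346 and 5312, against 4812, 5560.4 and 8395 on CGD. The changes were -0.79 (limma adjusted p 0.031) and -0.51 (adjusted p 0.115). The HFD call of Cyp6g1 was lost without any of the CFD replicates 1, 2 and 3 or HFD replicates 2 and 3 (adjusted p 0.0625 to 0.132), and with equal totals the HGD change passed (-0.73, adjusted p 0.047).

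Cyp6a9 and Cyp6v1 also fell on HFD, by narrow margins. Cyp6a9 averaged 17.8 ± 4.37 on HFD and 40.8 ± 5.89 on CFD (SD, n = 3 each), a log2 change of -1.17 (limma adjusted p 0.0252). That call was lost without any of the CFD replicates 1, 2 and 3 or HFD replicates 2 and 3 (adjusted p 0.0535 to 0.103) and with limma-voom on the recovered reads (0.0652). Cyp6v1 changed by -0.45 (adjusted p 0.0454), and lost its call under 12 of the alternatives tried, among them the replicate block (adjusted p 0.0697) and each CFD or HFD library left out (0.0663 to 0.158). Averaged over both sugars, Cyp6a13 was higher by 0.39 (adjusted p 0.0152) and Cyp6d2 lower, at -0.48 (adjusted p 0.013), and exons of nsr cover 51% of those of Cyp6d2. With equal totals the call of Cyp6a13 was lost (adjusted p 0.3995).

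Cyp6a2, a phenobarbital-inducible gene also tied to DDT resistance, is described for its contrast between the sugars, chosen after its values were seen. It had 18.6, 7.3 and 3.22 on HFD, against 15.8, 26.6 and 12.2 on CFD, and 21.4, 42.6 and 21.5 on HGD, against 15.9, 9.93 and 18.1 on CGD. The log2 changes were -1.05 and 0.88, and neither was called. The response to glucose minus that to fructose was 1.93 (SE 0.69, unadjusted p 0.0151, limma adjusted p 0.937), so it did not pass over all genes. As few as 2 reads lay behind its lowest value.

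In the Cyp9 family, another group of microsomal enzymes, 1 of 5 genes rose and 1 fell with each sugar. Cyp9f2 (FBgn0038037, chromosome 3R from 12403340 to 12406028 on the minus strand) had 808, 713 and 758 on HFD, against 442, 492 and 347 on CFD. It had 956, 794 and 749 on HGD, against 336, 390.0 and 529.7 on CGD. The libraries of each diet were close together and did not overlap, and the log2 changes were 0.84 (SE 0.18, limma adjusted p 0.00556) and 1.01 (SE 0.18, adjusted p 0.00116).

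Cyp9h1 (FBgn0033775, chromosome 2R from 12840813 to 12842558 on the minus strand) had the largest fall on HFD among the P450 genes. Its values were 60.3, 54.7 and 54.3 on HFD, against 179.6, 261 and 171 on CFD. They were 36, 60.3 and 68.1 on HGD, against 150.3, 182 and 231 on CGD. Each high-sugar library held less than each control library, with log2 changes of -1.81 (SE 0.24, limma adjusted p 0.000232) and -1.78 (SE 0.24, adjusted p 0.000172), 3.51-fold and 3.44-fold lower. Cyp9b2, the most abundant Cyp9 gene per kb, averaged 1477 ± 221 on HFD and 1431 ± 299 on CFD, and 1664 ± 163 on HGD and 1536 ± 695 on CGD (SD, n = 3 each). Its log2 changes of 0.06 and 0.20 had 95% intervals of ± 0.54 and were not called, and CGD replicate 3, at 2338, stood above the other libraries. Without CGD replicate 3 the HGD change of Cyp9b2 was 0.55 and passed (adjusted p 0.0434).

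Cyp12 enzymes belong to the mitochondrial clan. Of the 5 genes measured 1 was lower on HFD, beside 9.93% of all genes. On HGD 1 was higher and 1 lower, beside 16.7% and 12.9% of all genes. Cyp12a4, whose overexpression gives resistance to the insecticide lufenuron, fell with both sugars. It (FBgn0038681, chromosome 3R from 19135158 to 19137136 on the plus strand) had 148, 176 and 116 on HFD, against 459, 435 and 326 on CFD. It had 162, 132 and 126 on HGD, against 430.1, 451 and 603 on CGD. Each high-sugar library held less than each control library, and the log2 changes were -1.47 (SE 0.20, limma adjusted p 0.000215) and -1.81 (SE 0.20, adjusted p 2.93e-05). Cyp12b2 rose on HGD, where it averaged 33.9 ± 4.62, against 17.5 ± 6.2 on CGD (SD, n = 3 each), a change of 0.97 (limma adjusted p 0.0143) that was lost without HGD replicate 2 (0.0554) and with equal totals (0.139). The other 3 Cyp12 genes were not called with either sugar.

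Among the 15 genes of other families, 2 were higher and 3 lower on HFD, beside 9.4% and 9.93% of all genes. On HGD 4 were higher and 3 lower, beside 16.7% and 12.9% of all genes. Cyp309a2 (FBgn0041337, chromosome 2L from 2564886 to 2573037 on the minus strand) had 29.3, 41.1 and 38.6 on HFD, against 7.98, 11.1 and 1.59 on CFD, and 42.3, 26.6 and 47.4 on HGD, against 7.87, 4.45 and 14.2 on CGD. The diets did not overlap although the lowest library held only 3 reads, and the log2 changes were 2.49 (SE 0.51, limma adjusted p 0.00402) and 2.10 (SE 0.51, adjusted p 0.00749). Without CFD replicate 3 the HFD change was 1.83 (adjusted p 0.0097). Its neighbor Cyp309a1 was far more abundant, at 5264, 5121 and 4668 on HGD against 2848, 2804 and 3756 on CGD, a change of 0.69 (limma adjusted p 0.00581), which was 0.47 (adjusted p 0.0905) with equal totals. On HFD it had 3837, 4096 and 4798, against 3502, 3862 and 3295 on CFD, a change of 0.25 that was not called.

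Cyp310a1 (FBgn0032693, chromosome 2L from 18651058 to 18653010 on the minus strand) rose to 312, 364 and 262 on HFD, against 110.2, 119 and 84.3 on CFD, and to 387, 263 and 251 on HGD, against 89.8, 109 and 139.7 on CGD. The lowest high-sugar library was above the highest control library, and the log2 changes were 1.57 (SE 0.22, limma adjusted p 0.00027) and 1.40 (SE 0.22, adjusted p 0.000388). Cyp313b1 rose on HGD by 1.07 (adjusted p 0.0182), a call lost without CGD replicate 1 (0.0524) or HGD replicate 2 (0.0842) and with equal totals (0.106).

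Cyp28d1 (FBgn0031689, chromosome 2L from 5210460 to 5212445 on the plus strand), a gene that has been tied to nicotine resistance, fell with both sugars. It had 545, 437 and 441 on HFD, against 1799.5, 1506 and 1190.2 on CFD, and 451, 433 and 599 on HGD, against 1294, 1392 and 2292 on CGD. The highest high-sugar library, HGD replicate 3, held less than the lowest control library, CFD replicate 3. The log2 changes were -1.64 (SE 0.22, limma adjusted p 0.000247) and -1.71 (SE 0.22, adjusted p 0.000122). Cyp49a1, a gene of the mitochondrial clan, had 9.25, 4.72 and 10.4 on HFD, against 20.2, 26.9 and 21.8 on CFD, and 6.88, 9.76 and 12.1 on HGD, against 22.3, 27.5 and 21.1 on CGD. Its changes of -1.44 (limma adjusted p 0.00518) and -1.24 (adjusted p 0.00859) rest on few reads, as few as 1 in a library.

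Cyp304a1 had 52.3, 35.9 and 33.5 on HFD, against 110.0, 116 and 135 on CFD, a log2 change of -1.57 (SE 0.31, limma adjusted p 0.00359). On HGD it had 37.9, 71 and 112, against 161, 109.7 and 126 on CGD, a change of -0.95 (SE 0.31, adjusted p 0.0348). HGD replicate 3 overlapped CGD. That glucose call was lost without HGD replicate 1 (-0.54, adjusted p 0.124), HGD replicate 2 (0.0683) or CGD replicate 1, 2 or 3 (0.124, 0.0502 and 0.058), with the replicate block (0.052) and in a fit of HGD and CGD alone (0.0676).

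The order of the P450 genes by level changed with diet. Levels are given here as the mean normalized value per kb of exon, so that genes of different length can be compared. On HFD Cyp4e3 was the highest at 2948 ± 1444, before Cyp4d1 at 2439 ± 1311, Cyp309a1 at 2125 ± 249 and Cyp6g1 at 1927 ± 451 (SD, n = 3 each). On CFD the highest were Cyp6g1 at 3271 ± 159.7, Cyp309a1 at 1779 ± 144 and Cyp4d1 at 1515 ± 65.7 (SD, n = 3 each), and Cyp4e3 was at place 51 of 62 with 7.88 ± 0.343. On HGD the order of the first 4 was that of HFD, with Cyp4e3 at 3965 ± 1083 and Cyp4d1 at 3939 ± 1906. On CGD the order of the first 3 was that of CFD, and Cyp4e3 was at place 44 with 11 ± 11.8. On both high-sugar diets the gaps between successive genes among these 4 were smaller than the SD of at least 1 of the pair, so that their order is not resolved. Cyp6g1 stood above Cyp9b2, the next in order, by more than either SD on both of these diets. On the control diets Cyp6g1 stood above Cyp309a1 by more than either SD. Between Cyp309a1 and Cyp4d1 the gap exceeded either SD on CFD and not on CGD, where they were at 1570.2 ± 269 and 1409 ± 351. Cyp28d1 was at place 13 on HFD and 13 on HGD, against 5 on CFD and 4 on CGD.

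Summed over all 62 genes, the level per kb was 16202 ± 4074 on HFD and 14360.4 ± 1509 on CFD, and 20293 ± 2304 on HGD and 13906 ± 4252 on CGD (SD, n = 3 each). Cyp4e3 alone made up 17.5% ± 4.5 of that sum on HFD and 0.0554% ± 0.0086 on CFD. It made up 19.6% ± 5.42 on HGD and 0.0684% ± 0.0556 on CGD. The whole Cyp4 family took 47.7% ± 7.35 on HFD and 25.1% ± 1.13 on CFD, and 52.8% ± 5.15 on HGD and 26.7% ± 0.773 on CGD. The Cyp6 family took 20.5% ± 1.2 on HFD and 37.7% ± 2.68 on CFD, and 19.0% ± 3.58 on HGD and 34.6% ± 0.673 on CGD (SD, n = 3 throughout). Without Cyp4e3 the Cyp4 sum per kb was 4974 ± 1807 on HFD and 3589.9 ± 407 on CFD, and 6817 ± 2080.1 on HGD and 3716 ± 1170 on CGD, and libraries overlapped in both comparisons, HFD replicate 3 lying below CFD replicate 2 and HGD replicate 1 below CGD replicate 3. Shares of a sum are bound together, so a rise of one family lowers the share of the others. The Cyp6 sum itself was 3308 ± 755 on HFD and 5404 ± 617 on CFD, while on HGD and CGD (3821 ± 593 and 4811 ± 1437) the libraries overlapped.

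**Figure D3:**
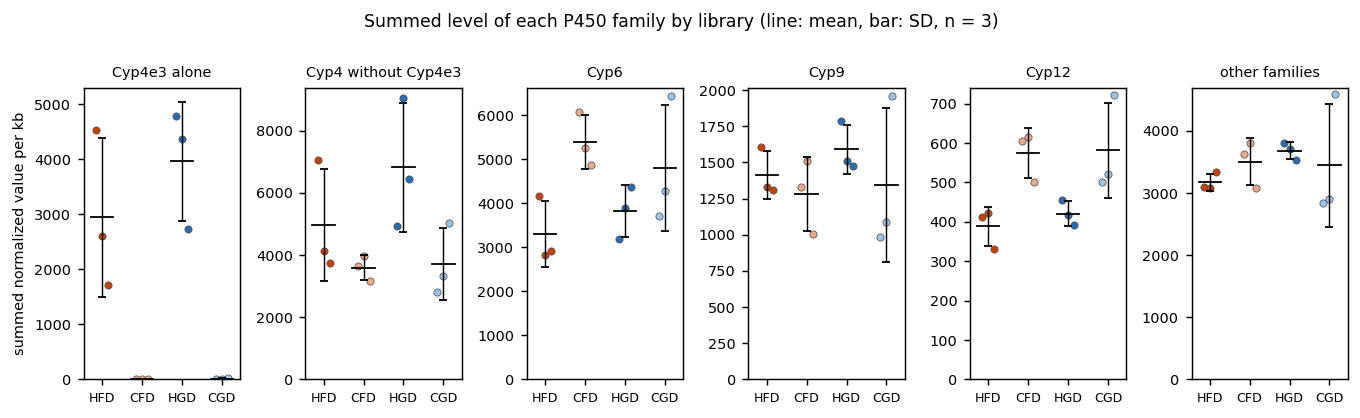
Summed normalized value per kb of exon (y axis, from 0) of Cyp4e3 alone, the other Cyp4 genes and the Cyp6, Cyp9, Cyp12 and other families in each library on HFD, CFD, HGD and CGD; points are libraries, lines means and bars SDs (n = 3). Cyp4e3 lies near 0 on CFD and CGD, and the Cyp6 sum lies lower on HFD than on CFD.

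P450 genes often lie in tandem, a result of local gene duplication, and 34 of the 62 lie within 20 kb of another one, in 12 groups. Members of a group did not always move together. The group of 7 genes on chromosome 2R holds Cyp6a22, which rose with both sugars, and Cyp6a21, which fell with both, with Cyp6a17, Cyp6a23, Cyp6a8 and Cyp317a1 not called and Cyp6a9 lower on HFD only. On X, Cyp4d1, Cyp4d14, Cyp4d2 and Cyp4ae1 adjoin each other, and 2 were higher on HFD and 3 on HGD with 0 lower. On 2L, Cyp28d1 fell while its neighbor Cyp28d2, at 6.07 on HFD and 9.78 on CFD, had a log2 fold change of -0.65 (95% interval ± 0.69) and was not called. On 3R, Cyp12a4 fell while Cyp12a5, which was not called, was at -0.29 (± 0.60) on HFD and -0.71 (± 0.60) on HGD. Cyp4e3 has no P450 neighbor in the table, and Cyp4e1 and Cyp4e2, which lie on another chromosome arm, had log2 fold changes of -0.15 and -0.35 on HFD and 0.42 and -0.23 on HGD, none of them called. No source used here says how reads that match several near-identical copies were assigned, so values of close paralogs such as the Cyp6a group are less certain than those of isolated genes.

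**Figure D4:**
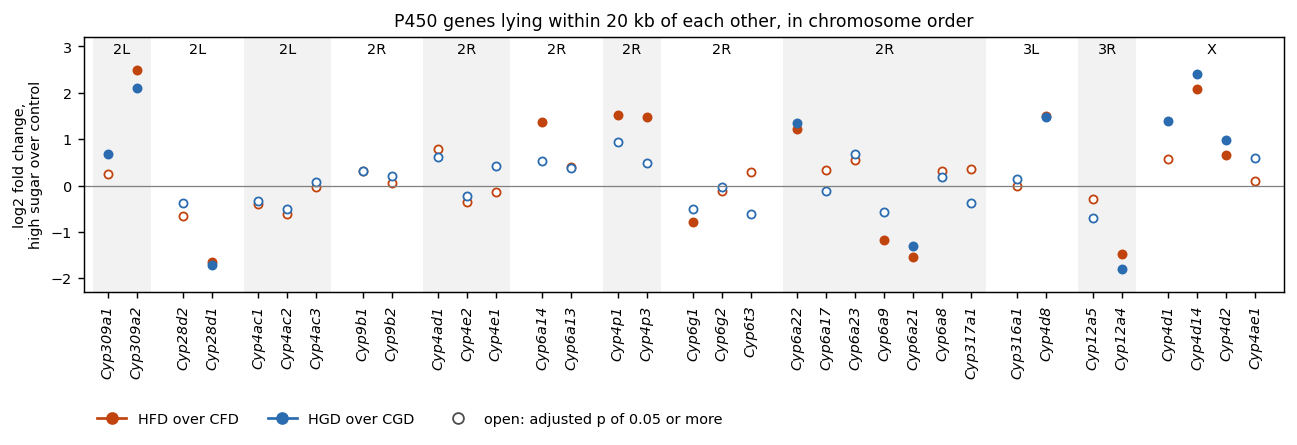
Log2 fold change (y axis) of the 34 P450 genes that lie within 20 kb of another, in chromosome order and in 12 shaded or plain groups with the chromosome arm above, HFD over CFD in red and HGD over CGD in blue; filled points passed an adjusted p of 0.05 (limma). The group of 7 on 2R has filled points on both sides of 0, and the group of 4 on X has none below 0.

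Glucose and fructose were then compared at equal concentration. On CGD against CFD limma called 0 P450 genes, with 2 at an unadjusted p under 0.05, and on HGD against HFD it called 0, with 3 at that level. The difference between the 2 high-sugar responses gave 0 calls (4 at an unadjusted p under 0.05), and so did glucose against fructose over both concentrations (2). limma-voom on the recovered reads also called 0 P450 genes in each of these 4 comparisons, with 2, 2, 4 and 2 at an unadjusted p under 0.05. The background was 0% of all genes in each. The study's edgeR exact test did report genes that differed between CGD and CFD, and CG6602 between HGD and HFD, none with a Cyp symbol. The limma fit called none of these, with smallest adjusted p over all genes of 0.999 and 0.883. The absence of calls here thus does not show that no gene separates the sugars. Libraries of CGD and CFD did not overlap in 3 higher and 0 lower P450 genes, beside 3.56% and 4.91% of all genes, and those of HGD and HFD in 5 higher and 1 lower, beside 5.37% and 3.63%. Half-widths of the unadjusted 95% interval had a median of 0.64 on the log2 scale over the 62 genes for either single comparison of sugars. For the difference of the responses the median was 0.91. Changes smaller than these were mostly not detectable. A call also had to pass adjustment over all genes, so changes larger than these half-widths could go uncalled too. On HGD against HFD the smallest unadjusted p were those of Cyp6a2, which was higher by 1.66 (p 0.00451, limma adjusted p 0.883), and Cyp9c1, higher by 0.81 (p 0.00715, adjusted p 0.883), both chosen after their values were seen. An antisense RNA covers 98.2% of the exon bases of Cyp9c1.

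P450 enzymes need electron donors, heme and transcriptional regulators, and these genes were counted from lists. Of all genes, 9.4% were called higher and 9.93% lower on HFD, and 16.7% higher and 12.9% lower on HGD. With equal totals these shares were 4.36% and 10% on HFD, and 6.76% and 14.3% on HGD. On the electron donor list, 2 of 5 measured genes rose on HFD and 3 on HGD, with 0 lower. The median log2 fold change of the list was 0.35 on HFD and 0.69 on HGD, beside -0.02 and 0.01 over all genes. With equal totals 1 rose on HFD and 2 on HGD. The reductase Cpr had 796, 685 and 474 on HFD, against 407, 393 and 315 on CFD, a log2 change of 0.78 (SE 0.21, limma adjusted p 0.0198). On HGD it had 750.1, 919 and 684, against 352, 326 and 501 on CGD, a change of 1.01 (SE 0.21, adjusted p 0.00327). Each high-sugar library lay above the control libraries of its sugar, although HFD replicate 3 came near to CFD replicate 1. Cyt-b5-r, a cytochrome b5-related gene on the list, rose by 1.22 (adjusted p 0.0242) on HFD and 1.71 (adjusted p 0.00257) on HGD. It is not an established electron donor of P450s. The gene dare, which serves mitochondrial P450s, rose by 0.69 (adjusted p 0.0109) on HGD only. Without Cyt-b5-r the list holds only Cpr as a call on HFD, and Cpr and dare on HGD. Of the 9 heme genes, 2 were higher and 1 lower on HFD, and 4 were higher and 0 lower on HGD, with medians of 0.16 and 0.31. With equal totals 0 were called on HFD and 2 were higher on HGD. Alas, which starts heme synthesis, rose by 0.59 (limma adjusted p 0.0409) and 1.01 (adjusted p 0.00142), and Pbgs, which acts next, by 0.78 (adjusted p 0.0117) and 1.06 (adjusted p 0.00118). Of the 11 regulators of P450 genes and hormone response, 1 was higher on HFD and 6 on HGD, with 0 lower and medians of 0.17 and 0.50. The HFD count was near the 9.4% of all genes. With equal totals 0 were called on HFD and 2 on HGD. The juvenile hormone receptor gene gce rose with both (0.39 and 0.91), and on HGD cnc and Keap1, an activator and repressor pair of the oxidative stress response, rose by 0.64 and 0.52. The nuclear receptor gene Hr96, a regulator of xenobiotic and lipid genes, rose on HGD by 0.92 (limma adjusted p 0.00181), the ecdysone receptor gene EcR by 0.51 and foxo, a transcription factor restrained by insulin signaling, by 0.50.

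**Figure D5:**
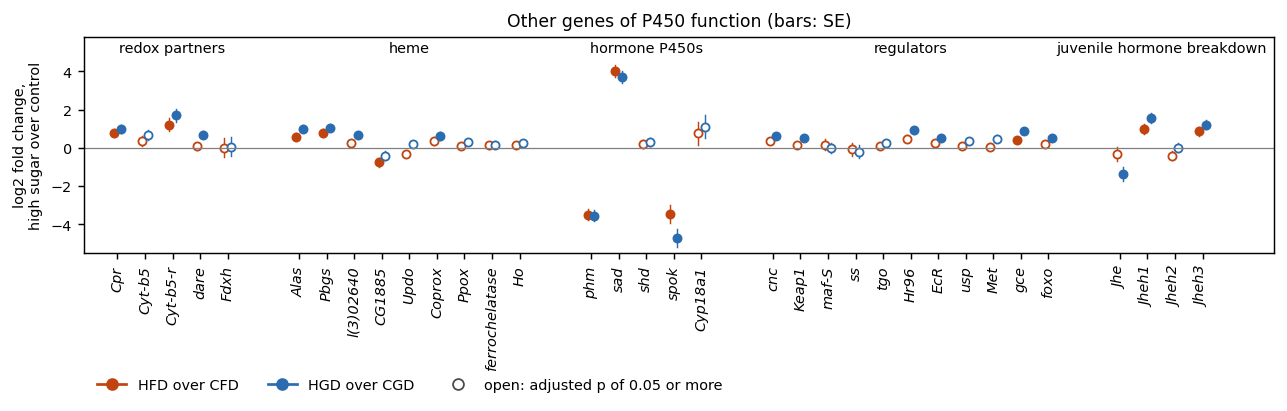
Log2 fold change (y axis) of the measured genes on the electron donor list, heme genes, hormone P450s, regulators and juvenile hormone breakdown genes, HFD over CFD in red and HGD over CGD in blue, with bars of 1 SE; filled points passed an adjusted p of 0.05 (limma). phm and spok lie far below 0 and sad far above it, while the genes of the electron donor list, heme genes and regulators lie between -0.75 and 1.71.

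Of 5 P450 genes of hormone metabolism measured, which carry other symbols or were left out, 1 was higher and 2 lower with each sugar, and these 3 changed by more than any of the 62 genes but Cyp4e3. Among all genes 9.4% were higher and 9.93% lower on HFD, and 16.7% higher and 12.9% lower on HGD. phm and spok, which act in earlier steps of ecdysone synthesis in the prothoracic gland, were lower with both sugars. phm had 10.4, 13.7 and 13.6 on HFD, against 94.7, 193 and 185 on CFD, and 18.1, 23.1 and 12 on HGD, against 238, 221 and 181 on CGD, with log2 changes of -3.49 (limma adjusted p 4.98e-06) and -3.56 (adjusted p 3.55e-06). spok changed by -3.48 (adjusted p 0.00025) and -4.70 (adjusted p 1.58e-05). sad, which adds the last hydroxyl group before ecdysone, had 2569, 4562 and 3655 on HFD, against 126, 296 and 258 on CFD, and 3708, 3529 and 3546 on HGD, against 366, 307 and 184 on CGD, with changes of 4.03 (limma adjusted p 2.91e-06) and 3.70 (adjusted p 4.41e-06). shd, which converts ecdysone to its active form in peripheral tissues, and Cyp18a1, which inactivates it, were not called, with log2 changes of 0.19 and 0.76 on HFD and 0.30 and 1.1 on HGD. Among the 4 juvenile hormone breakdown genes, the epoxide hydrolase genes Jheh1 and Jheh3 rose with both sugars (Jheh1 by 1.0 and 1.55, Jheh3 by 0.87 and 1.21). The esterase gene Jhe fell on HGD by 1.37 on the log2 scale (limma adjusted p 0.0135). Its level was low, at 2.84, 3.55 and 6.04 on HGD against 11.5, 10.8 and 13.4 on CGD.

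Markers of other tissues moved with the diets, and their part in the P450 changes was not tested. The counts below stand beside 9.4% of all genes higher and 9.93% lower on HFD, and 16.7% higher and 12.9% lower on HGD. Of 9 midgut markers measured, 5 were lower on HFD and 4 on HGD, among them the amylase genes Amy-p and Amy-d with both sugars. The other 4 on HFD and 5 on HGD were not called. Of these, mag changed by -0.08 on HFD and 0.62 on HGD, and alphaTry by -0.50 and 0.13. The summed normalized value of the 9 markers was 859 to 5764 on HFD and 4346 to 14746 on CFD, and 1577 to 3614 on HGD and 4654 to 11580.1 on CGD. Most of this sum came from Jon65Aiv and Jon65Aiii, which averaged 5428 and 1926 on CFD. For Cyp6d5 and Cyp4d1, chosen after their values were seen, the order of the 3 libraries of a diet is described beside it. Whether midgut RNA bears on either gene was not tested. The library with the highest midgut sum also had the highest Cyp6d5 value on CFD (replicate 1, 3048), HFD (replicate 1, 864) and HGD (replicate 3, 1168). On CGD the midgut sum was highest in replicate 2 and Cyp6d5 in replicate 3. The highest Cyp4d1 value fell in that library on HFD only (replicate 1, 9033), and not on CFD, HGD or CGD. HFD replicate 1 also had the highest fat body marker sum of its diet. Of 5 Malpighian tubule markers 2 were lower with each sugar and 1 higher on HGD, with sums of 358 to 413 on HFD, 449 to 924 on CFD, 344 to 422 on HGD and 1038 to 1502 on CGD. Of 9 muscle markers 3 were higher on HFD and 8 on HGD, with sums of 22872 to 31788 on HFD and 11812 to 21781 on CFD, and 20185 to 31299 on HGD and 6111 to 12308 on CGD. Of 6 hemocyte markers 4 were lower on HFD and 5 on HGD, while Pxn, the most abundant, was higher with both, and the sums were 4408 to 6420.5 on HFD and 2113 to 3482 on CFD, and 5531 to 6854 on HGD and 1996 to 4625 on CGD. No marker in the table could be at 0, since genes without a read in some library were not listed. Ring gland markers in the table were spok and phm, summing to 15.2 to 21.4 on HFD, 192 to 264 on CFD, 18.0 to 31.1 on HGD and 281 to 475 on CGD, while sad, which acts in the same gland and was not on this list, was higher with both sugars, as given above. The only oenocyte marker measured, CG18031, was not called and lay between 123.5 and 197 over all 12 libraries. Of 6 salivary gland genes measured 0 were called on HFD and 1 was higher on HGD, and of 4 cuticle genes 2 were higher on HFD and 3 on HGD.

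The uncalled genes covered a wide range of levels, and those named in this paragraph were chosen after their values were seen, as were Cyp4g1 and the uncalled neighbors above. Of the 62 genes 36 were called with neither sugar, and among the uncalled genes the log2 fold change ran from -1.29 to 0.78 on HFD and from -0.71 to 1.44 on HGD. The lowest on HFD, Cyp318a1, and the highest on HGD, Cyp312a1, were among the lowest in level, at 1.38, 2.42 and 1.06 on HFD against 4.34, 4.47 and 7.3 on CFD for Cyp318a1, and at 14.3, 5.33 and 3.41 on HGD against 0.611, 3.58 and 1.93 on CGD for Cyp312a1. For 21 genes the library with the fewest held under 10 reads, and 6 genes averaged under 10 on every diet, and among such genes a change had to be large to be detectable. Abundant genes that were not called with either sugar included Cyp4e2, Cyp4s3, Cyp28a5 and Cyp9b2, which averaged 1043, 1240.0, 857 and 1477 on HFD and 1249, 1377, 1099 and 1431 on CFD. Their HFD changes of -0.35, -0.15, -0.35 and 0.06 had 95% intervals of ± 0.70, ± 0.42, ± 0.60 and ± 0.54.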

How the data were processed

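Fat body RNA was depleted of ribosomal RNA and sequenced. By the methods of the study, the authors used TopHat and Bowtie to map reads to an Ensembl build, HTSeq for the gene counts and edgeR for the tests. The submitters' processing notes differ, giving 0.12.7 for Bowtie, 1.3.2 for TopHat and 1.1.0 for Cufflinks with dm3 as build. Which of the 2 accounts holds for the table is not settled, and neither gives the strand setting. The deposited signal values are gene counts that the authors adjusted to equal library sizes with edgeR, once among the 6 fructose and once among the 6 glucose libraries, and they are called normalized values here. Inverting that adjustment returned whole reads for 100% of values in every library (within 0.0001), and these recovered reads gave the depths and an alternative test. Genes without a read in some library were not in the table and were not analysed here. Precision rests on 3 libraries per diet, which the study calls biological replicates.

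Groups were taken from the sample labels. Glucose values were multiplied by 0.88, which sets the median log2 difference between the sugars to 0 over all genes. The log2(value + 1) values of 9500 genes were fitted with limma 3.58.1 in R 4.3.3 (4 diet means, 12 libraries, eBayes with a trend), with Benjamini-Hochberg adjustment over all genes and a threshold of 0.05. The step was tested on simulated data. Fold changes on this scale understate the change of low genes. Tables and figures were made in Python 3.11.15. Positions and exon lengths come from BDGP6.54, which is not the authors' build. All 62 genes were matched, 61 by identifier and 1 by symbol. Named are the P450 genes called in any comparison and the 5 highest per kb, and others are named as chosen after their values were seen. The genes and lists were chosen with earlier results of these data known. Alternatives were other scalings, no factor between the sugars, a filter at a mean of 10, pseudocounts of 0.1 and 5, limma-voom on recovered reads, a fit restricted to the 2 diets at hand, the replicate number as a block, and leaving out 1 library at a time. Promoter letters were not analysed here.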

Additional observations from a re-analysis of the deposited data

How the results depend on the processing

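The counts of P450 genes called stayed within 1.5 times their values under every alternative that was run. Leaving out each library in turn gave 17 to 24 P450 genes on HFD against CFD (1150 to 2033 of all genes), 15 to 24 on HGD against CGD (1874 to 2892), 30 to 32 over both sugars (3406 to 4016) and 0 in the other 4 comparisons. For single named genes, 1829 values kept their direction and side of the threshold, 54 lost a call, 15 gained one and 4 changed sign. Those 4 were all Cyp9b2, which had no call to lose: on HFD against CFD its log2 change was -0.14 with equal totals, -0.12 without CFD replicate 3 and -0.06 without HFD replicate 1, and on HGD against CGD it was -0.017 with equal totals. Leaving out each library in turn gave Cyp9b2 -0.12 to 0.18 on HFD. Equal replicate numbers did not pair the libraries. Correlations of deviations between same-numbered libraries ran from -0.36 to 0.21, and the best match was the library's own number in 1 of 12 cases. With the replicate block 21 P450 genes were called on HFD, 18 on HGD and 31 over both sugars, beside 1590, 2502 and 3734 of all genes. Restricting the fit to the diets compared is not possible for the 3 comparisons that use all 4 diets. The cause of these changes was not tested. HFD replicate 2 held the fewest recovered reads in the listed genes. In their lowest library 21 of the 62 genes held under 10 reads, so the changes of these genes are the least precise.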
